A study of Panicum virgatum with 8 samples.

Results

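The miR396 family of switchgrass (Panicum virgatum) was examined in the table of predicted miRNA precursors that the authors deposited. Members were the loci whose more abundant strand, or the first listed strand at a tie, carried a miR396 name from miRBase, and loci with poor pairing were kept. This rule returned 9 of the 210 loci in the table and 4 of its 59 distinct miRNA sequences, namely ata-miR396c-5p, ata-miR396b-5p, ata-miR396e-5p and osa-miR396d. Each name comes from a matching miRBase entry of Aegilops tauschii (ata) or rice (osa) and does not state orthology.

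Small RNA was sequenced from 8 libraries of the switchgrass strain AP13, with 1 library per condition and no transgene or mutant in any of them. The plants had been chilled (4 °C, 24 h) or left unchilled, droughted (11 days after watering ended) or kept as the drought control, or watered again after drought and taken on day 12, and the other libraries came from leaf, stem and panicle. The labels give above-ground tissue for the 5 control and stress libraries, whereas the methods of the study name upper leaf blades. The deposited table names no library and carries no read totals, and each of the 7 miR396 sequences that it lists, miRNA and miRNA* together, had a single abundance wherever it recurred, so the libraries were taken as pooled. The study gives read totals for each library, but how the table combined the libraries and in which unit is not stated, so those totals do not give the depth behind a listed value. Conditions and tissues therefore could not be compared, and no value below has a replicate error or a test.

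Plant miRNAs are cut from a hairpin precursor as a duplex of the miRNA and its partner strand, the miRNA*, and the miRNA is then loaded into an Argonaute protein, AGO1 most often where the first base is U. The miR396 family directs the cleavage of mRNAs of the GROWTH-REGULATING FACTOR (GRF) transcription factors, which act with GIF coactivators to keep cells dividing in young leaves and other growing organs. In Arabidopsis, miR396 pairs with the GRF site across a bulge. Grasses carry in addition a form with an inserted base that pairs with the same site without the bulge. GRF mRNAs were not measured in these libraries.

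The 4 miRNA sequences are shown because they fall into these forms. They are written 5′ to 3′ with T for U, as in the deposited table, and bases 2 to 8, the seed, are in capitals.
ata-miR396c-5p: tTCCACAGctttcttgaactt
ata-miR396e-5p: tTCCACAGctttcttgaactg
ata-miR396b-5p: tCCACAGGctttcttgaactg
osa-miR396d: tCCACAGGctttcttgaacgg
All 4 sequences were 21 nt long and began with T. The sequences ata-miR396c-5p and ata-miR396e-5p shared their seed and differed only at the last base (T21G from the former to the latter, counted from the 5′ end). The sequences ata-miR396b-5p and osa-miR396d shared the other seed and differed only at the base before the last (T20G from ata-miR396b-5p to osa-miR396d). The forms with different seeds are in different registers. The sequence of ata-miR396b-5p was that of ata-miR396e-5p without its first base and with a G inserted after base 7 or, equivalently, base 8. All 4 sequences had a run of 12 nt in common. That run occurred in no miRNA of the table with a name outside miR396, and neither seed was found in a miRNA of another family.

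The 2 seed forms were both represented by an abundant sequence. The most abundant member was ata-miR396c-5p, listed at 2888, followed by ata-miR396b-5p at 2180, ata-miR396e-5p at 476 and osa-miR396d at 7. Among the 59 miRNA sequences of the table, whose median was 120, these held ranks 8, 10, 23 and 48. The form with the seed of ata-miR396c-5p summed to 3364, or 60.6% of the family, and the form with the inserted G to 2187, or 39.4%. Within each form 1 sequence held most of this abundance, since ata-miR396c-5p was listed at 6.07 times the value of ata-miR396e-5p and ata-miR396b-5p at 311 times that of osa-miR396d. How far these values would vary between libraries is not known.

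Summed over its 4 sequences, the family reached 5551 and ranked 5th of 29 families, with 1.98% of the abundance of all distinct miRNA sequences. This share depended on a single sequence outside the family. The miR166 sequence ata-miR166d-3p alone held 66.0% of the total, and without it the share of miR396 was 5.80%. The rank of miR396 rests on small differences, since miR5168 at rank 4 summed to 5562 and miR159 at rank 7 to 5182. Of the other conserved families examined that act on transcription factors in the shoot, miR166 and miR319 had higher sums than miR396, at 193400 and 10152, and the others had lower sums. The closest of these was miR167, a regulator of auxin response factors, which summed to 5435. By their most abundant sequence, miR319, which targets TCP factors, was represented by bdi-miR319b-3p at 10152 and miR167 by ata-miR167d-5p at 4837, both above the 2888 of ata-miR396c-5p. Values below it were listed for gma-miR156o (1866) of the SPL-targeting miR156 family, ata-miR164c-5p (1795) of the NAC-targeting miR164 family, ata-miR172b-3p (873) of the AP2-targeting miR172 family and ata-miR160c-5p (117) of the auxin-linked miR160 family. In number of loci, miR396 with 9 was between miR164 with 8 and miR160 with 10, and well below miR156 with 26.

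The miRNA* was listed for 3 of the 4 members, at 7 of the 9 loci, and 43.8% of all loci in the table listed it at 1 or more. These strands are shown, 5′ to 3′ and in lower case, because they differ in how much was listed of each.
miRNA* of ata-miR396c-5p: ggtcaagaaagctgtgggaag
miRNA* of ata-miR396e-5p: gttcaataaagctgtgggaaa
miRNA* of ata-miR396b-5p: gttcaagaaagcccatggaaa
The miRNA* of ata-miR396c-5p was listed at 190, that of ata-miR396e-5p at 44 and that of ata-miR396b-5p at 5. The first of these was the second highest miRNA* among the 29 miRNA sequences with a listed miRNA*, whereas that of ata-miR396b-5p held rank 19. The ratio of miRNA to miRNA* was 15.2 for ata-miR396c-5p and 10.8 for ata-miR396e-5p, both below the median of 26.1 over the 26 such sequences of other families. For ata-miR396b-5p the ratio was 436, the 5th highest of the 29. Between ata-miR396c-5p and ata-miR396b-5p the miRNA was 1.32 times higher and the miRNA* 38.0 times higher in the former, so the lower ratio of ata-miR396c-5p went with its higher miRNA* and not with a lower miRNA. The ratio of 436, its rank and the 38.0 times all rest on the single low value of 5, whose error is not known. Requiring a miRNA* of at least 10 removed ata-miR396b-5p. No miRNA* of osa-miR396d was listed above 0. In this table the miRNA* abundance was 0 at each structure whose miRNA* had no miRBase name and at no other, so a 0 does not show that a strand was not sequenced.

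**Figure D1:**
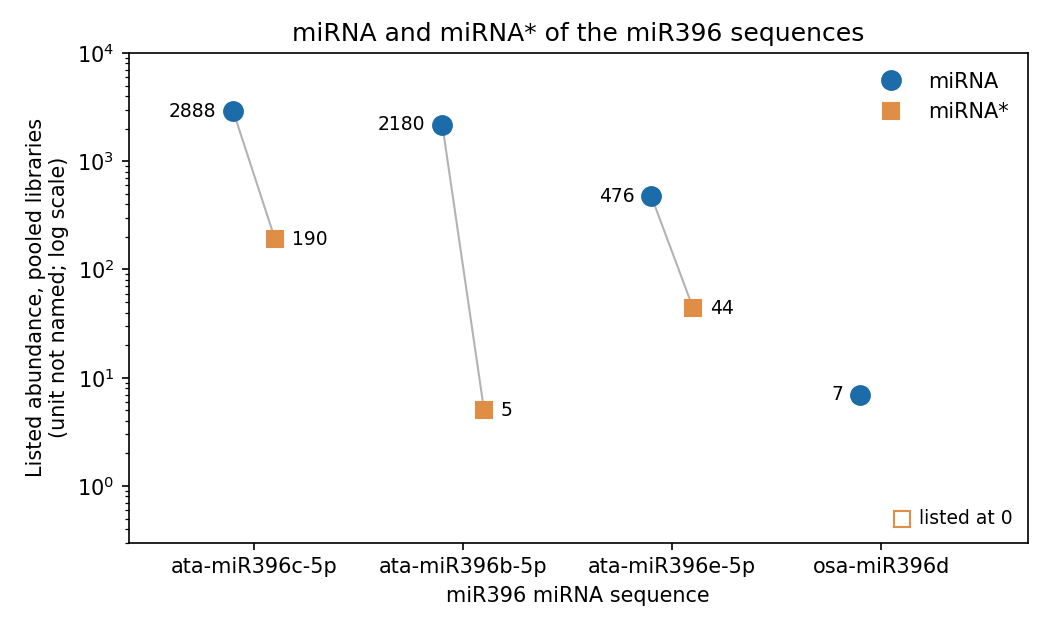
Listed abundance (log scale, unit not named, pooled libraries) of the miRNA (circles) and the miRNA* (squares) for each miR396 sequence, with lines joining the strands of 1 duplex. The miRNA values of ata-miR396c-5p (2888) and ata-miR396b-5p (2180) are close, while their miRNA* values are 190 and 5; the open square stands for a miRNA* listed at 0, which has no place on a log scale.

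Within the seed form of ata-miR396c-5p and ata-miR396e-5p, the miRNA* strands differed at 3 positions and the miRNAs at 1. Between the forms, miRNA* and miRNA differed equally. Both differed at 6 positions between ata-miR396b-5p and ata-miR396c-5p, and at 5 between ata-miR396b-5p and ata-miR396e-5p. Between the miRNA* of ata-miR396c-5p and that of ata-miR396e-5p the differences were G2T, G7T and G21A. Between those of ata-miR396b-5p and ata-miR396e-5p they were G7T, C13T, C14G, A15T and T16G, with positions 13 to 16 opposite the 5′ part of the miRNA. Paired with the miRNA by RNAduplex, the predicted energy was -28.3 kcal/mol for ata-miR396c-5p, -27.1 kcal/mol for ata-miR396b-5p and -25.9 kcal/mol for ata-miR396e-5p. Over the 126 distinct duplexes of other families the median was -27.6 kcal/mol and the range -36.5 to -7.4 kcal/mol, and the miR396 duplexes ranked 44, 72 and 84 of 130 from the most stable. The order of the duplex energies was not that of the ratios of miRNA to miRNA*.

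All 7 loci of ata-miR396c-5p, ata-miR396b-5p and ata-miR396e-5p carried the miRNA on the 5′ arm of the hairpin, as did 54.3% of all loci. They were also the members whose most stable structure met the thresholds of the study's methods on pairing and length (at most 5 mismatch positions, at most 3 nt in asymmetric bulges and a precursor under 300 nt), which 85.7% of all loci met. In the deposited table the authors called the same 7 of 9 loci miRNA candidates, against 75.7% of all loci. The study reports fewer precursors than these calls as its conserved miRNAs, and that list was not compared here. The 7 of 9 loci make up 77.8%, close to the shares of all loci for the thresholds and the calls and above those for the 5′ arm and the miRNA*, and with 9 loci that share sequence these differences have no test. The shares for the miRNA* count strands with a miRBase name, and not how often a miRNA* was sequenced. Meeting the thresholds limits these 7 loci to at most 5 mismatch positions, so their low numbers are partly set by that choice. The duplex had 1 mismatch position at both loci of ata-miR396c-5p, 2 at both loci of ata-miR396b-5p, and 2 at the Chr01K and Chr01N loci of ata-miR396e-5p but 3 at its Chr04K locus, where miRNA and miRNA* have the same letters as on Chr01. None of the 7 had a nucleotide in an asymmetric bulge. Without regard to the thresholds, the median was 2 mismatch positions over all 9 miR396 loci and 3 over the 201 other loci.

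In coordinates of version 4.1 of the genome, ata-miR396b-5p had its precursors at Chr07K:72666223-72666429 and Chr07N:69311620-69311823, both on the plus strand. These were the longest of the family at 207 and 204 nt, with 115 and 112 nt between miRNA and miRNA*. They also had the lowest hairpin free energies, -89.1 and -85.6 kcal/mol, ranks 36 and 41 from the most stable of 210. The precursors of ata-miR396e-5p were at Chr01K:77558748-77558908 (plus strand, -76.5 kcal/mol), Chr01N:93101740-93101904 (minus strand, -75.5 kcal/mol) and Chr04K:6694795-6694930 (plus strand, -68.6 kcal/mol). The first and second of these had 69 and 73 nt between the strands and the Chr04K precursor 44 nt. The precursors of ata-miR396c-5p were at Chr01K:77564402-77564560 (minus strand, -48.2 kcal/mol) and Chr01N:93095299-93095438 (plus strand, -65.3 kcal/mol). The most abundant member thus had the least stable hairpins of the 7, and its Chr01K copy was at rank 193 of 210. The 7 loci had a median of -75.5 kcal/mol, all 9 a median of -68.6 kcal/mol, and the 201 other loci a median of -68.8 kcal/mol. Neighbouring genes were not examined.

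**Figure D2:**
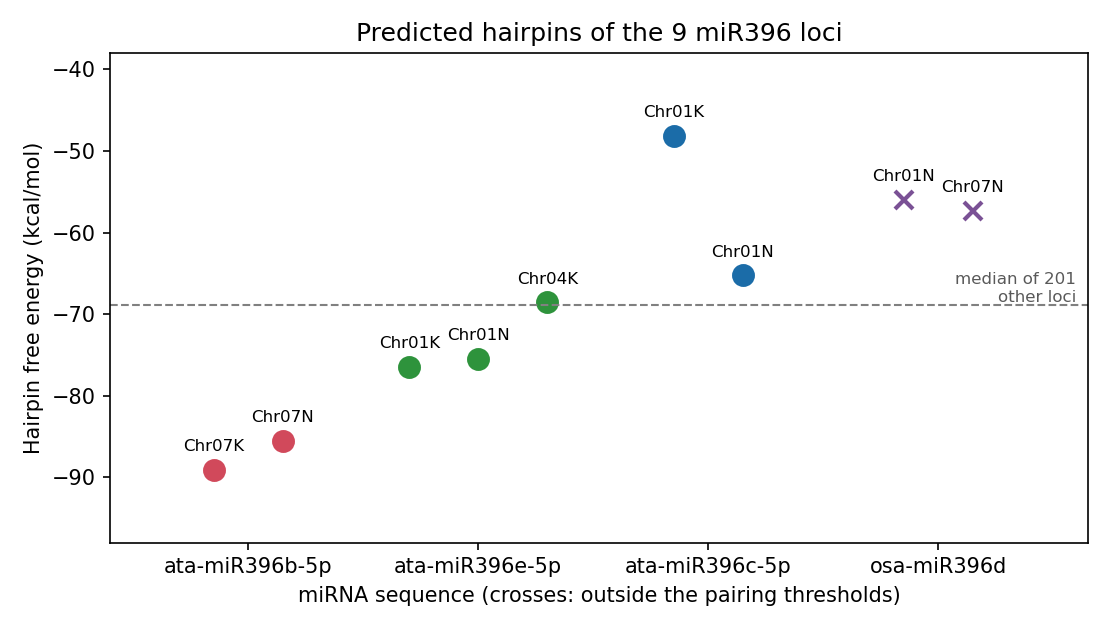
Predicted free energy of the most stable hairpin (kcal/mol, lower is more stable) at each of the 9 miR396 loci, grouped by miRNA sequence and labelled by chromosome; the dashed line is the median of the 201 other loci, -68.8 kcal/mol. The hairpins of ata-miR396b-5p lie lowest, the copies of ata-miR396c-5p lie 17.1 kcal/mol apart, and crosses mark the osa-miR396d loci, which miss the pairing thresholds.

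At 8 of the 9 loci a further structure was listed, and it was 0.188 to 1.70 kcal/mol less stable than the best. For the 7 loci within the thresholds, energy per nucleotide of hairpin was -0.60 to -0.38 kcal/mol. On that scale the order changed. The Chr01N copy of ata-miR396c-5p was the most stable of the 7 at -0.60 kcal/mol per nt, its Chr01K copy the least stable at -0.38 kcal/mol per nt, and the long ata-miR396b-5p hairpins were in between at -0.45 kcal/mol per nt each. The Chr01K copy of ata-miR396c-5p was the 8th least stable per nt of the 210 loci.

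Switchgrass is a tetraploid with K and N copies of each chromosome. The family had 4 loci on K and 5 on N chromosomes. Those on N included both loci of osa-miR396d, which miss the pairing thresholds. Matched copies, meaning 1 locus of the same miRNA on the K and on the N copy of a chromosome, were found for ata-miR396b-5p on chromosome 7 and for ata-miR396c-5p and ata-miR396e-5p on chromosome 1, and in each case the miRNA* was identical as well. The energy of the K minus that of the N copy was -3.53 kcal/mol for ata-miR396b-5p, -0.97 kcal/mol for ata-miR396e-5p and 17.1 kcal/mol for ata-miR396c-5p, a mean of 4.19 ± 11.2 kcal/mol (SD, n = 3 pairs) that rests on the last pair. In the 42 pairs of other families the mean was 1.43 ± 8.33 kcal/mol (SD) and the median size of the difference 3.50 kcal/mol. The pair of ata-miR396c-5p ranked 5th of 45 by size. Among the 26 pairs with an identical miRNA* it ranked first, closely followed by a pair of another family at -16.9 kcal/mol. The K copy of ata-miR396c-5p had 67 nt between miRNA and miRNA* and its N copy 48 nt, so the copies agree in both strands of the duplex and differ in the rest of the hairpin. Because a single abundance is listed per sequence, the output of the K and N copies cannot be told apart.

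**Figure D3:**
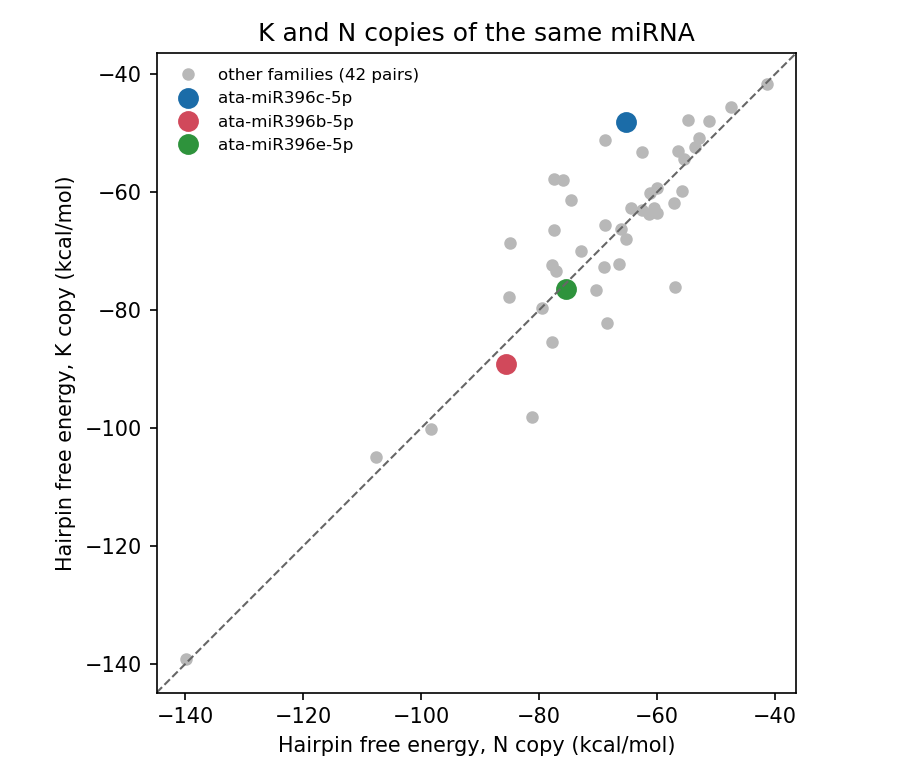
Predicted hairpin free energy of the K copy against that of the N copy (kcal/mol) for each miRNA with 1 locus on both copies of a chromosome; grey points are 42 pairs of other families, coloured points the miR396 pairs, and the dashed line marks equal energies. The pairs of ata-miR396b-5p and ata-miR396e-5p lie close to the line and that of ata-miR396c-5p lies 17.1 kcal/mol above it.

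On chromosome 1, the loci of the sequences that share the seed of ata-miR396c-5p lay side by side. The Chr04K locus of ata-miR396e-5p, which has this seed too, had no miR396 locus within 10 kb and no matched N copy. On Chr01K the ata-miR396e-5p precursor and the ata-miR396c-5p precursor were 5493 nt apart, and on Chr01N they were 6301 nt apart. In both places the precursors lay on opposite strands and pointed towards each other. Their order along the chromosome was reversed between the copies, since ata-miR396e-5p was on the plus strand and came first on Chr01K, whereas ata-miR396c-5p was on the plus strand and came first on Chr01N. Of the 9 matched pairs on chromosome 1, only those of ata-miR396c-5p and ata-miR396e-5p had their K and N copies on opposite strands, and over all chromosomes 10 of 45 pairs did. Neighbouring, non-overlapping loci of 1 family within 10 kb were found 10 times in the table. Of these, 2 were the miR396 pairs on the K and N copies of chromosome 1, and 8 were in 5 other families. Of those 8, 7 were on the same strand and 1 pair, of miR399, was convergent.

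**Figure D4:**
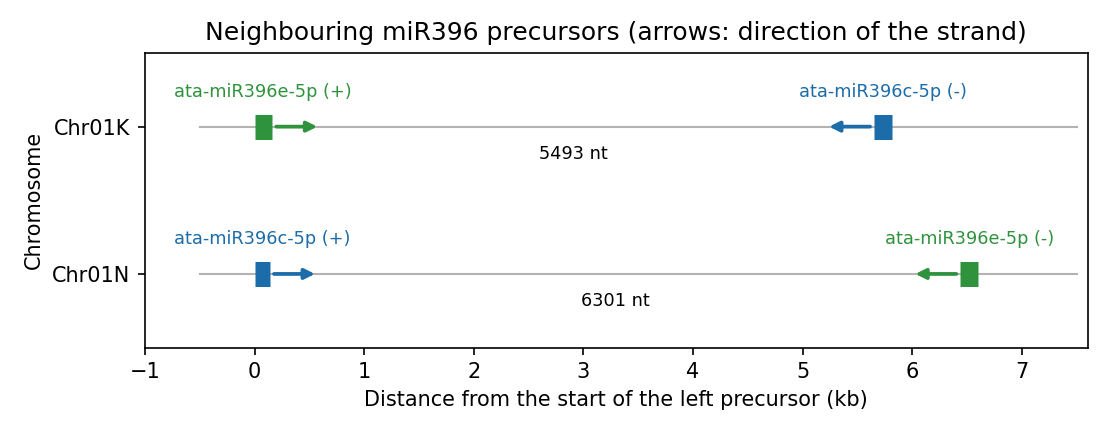
Neighbouring miR396 precursors on Chr01K and Chr01N, drawn to scale as distance from the start of the left precursor (kb), with arrows in the direction of each strand. The precursors of ata-miR396e-5p and ata-miR396c-5p point towards each other on both copies, 5493 and 6301 nt apart, in reversed order.

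The loci of osa-miR396d differed from the other members in pairing, arm and miRNA*. They were at Chr01N:83675593-83675701 and Chr07N:61469688-61469801, both on the plus strand, with no K copy listed and 9420 and 7842 kb from the nearest miR396 locus on the same chromosome. The authors called both of them bad seq. At the Chr01N locus the listed partner was of 19 nt (ggcggctgggacgggggca), with 10 mismatch positions, 1 nt in asymmetric bulges and a G and C content of 84.2%, while the miRNA* strands of the other members had 38.1% to 52.4%. RNAduplex paired it with the miRNA at -9.0 kcal/mol. At the Chr07N locus no partner sequence was listed and the structure had 33 mismatch positions. At the Chr01N locus the partner lay 5′ of the miRNA, unlike at the 7 loci within the thresholds, and at the Chr07N locus only a start position was listed for it, also 5′ of the miRNA. The hairpin energies of -56.0 and -57.4 kcal/mol were within the range of the other members. Per nucleotide of hairpin, the Chr07N locus at -0.53 kcal/mol was also within their range, whereas the Chr01N locus at -0.75 kcal/mol was more stable than any other member. With an abundance of 7, osa-miR396d made up 0.126% of the family. That value is below the minimum abundance given in the methods of the study, and the table does not say whether it uses the unit of that filter. The abundance belongs to the sequence, so it does not show which of the loci the small RNA came from.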

How the data were processed

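Small RNA libraries of 8 conditions (1 library each) were processed by the authors, who trimmed adapters, mapped reads to Panicum virgatum version 4.1 with Bowtie (0.12.7 in the submitters' processing notes), evaluated pairing with modified miREAP for sequences that matched miRBase 21 and folded precursors with UNAFold. The deposited abundance is a score whose unit the table does not name, and it was not treated as a count. The other deposited columns hold coordinates, positions, lengths, mismatch and bulge numbers and a free energy, read as kcal/mol.

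Each of 210 loci was represented by its arm of higher or equal abundance and its most stable structure. Families were read from the first word of the miRNA name, and sums were taken over distinct sequences. Duplexes were computed with RNAduplex of ViennaRNA 2.7.2 at 37 °C. Python 3.11.15, pandas 2.3.3 and matplotlib 3.10.9 were used. The selection was tested on simulated data. Every sequence returned for the family is named, and from other families the most abundant sequence of a list of shoot families, together with ata-miR166d-3p and the miR399 pair, which were chosen after their values were seen. Members and lists were chosen with earlier results of these data known. No test was run, because the table holds 1 pooled value per sequence and loci are not replicates. The alternatives are in the closing section. Precursor sequences and target mRNAs were not analysed here.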

Additional observations from a re-analysis of the deposited data

How the results depend on the processing

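Of 31 values recomputed under an alternative, 21 were unchanged or, for a count, within 1.5 times. Requiring a miRNA* of at least 10 left 5 loci and 2 sequences with a summed abundance of 3364, since it removed ata-miR396b-5p along with osa-miR396d. The summed abundance was 5544 within the pairing thresholds, with a miRNA* of at least 1 and with miRNA candidate calls only, each of which removed only osa-miR396d. The share of all abundance was 1.98% within the thresholds and 5.80% without the most abundant sequence of the table. Per nucleotide of hairpin, the median energy was -0.49 kcal/mol and the mean K minus N difference 0.067 kcal/mol. Each change follows from what its alternative left out or rescaled. Merging overlapping loci, leaving out scaffolds, requiring the miRNA strictly above the miRNA*, reading any word of the name and taking the structure listed first changed none of the values they were applied to. No paired analysis was possible because the table holds pooled values and no replicates. The depth behind a listed value is not known from the table, so no counting error is given for any value, the low ones of 5 and 7 included, and no outlying library could be looked for.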
